A study of Mus musculus with 9 samples.

Results

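Ccl2, Ccl7, Ccl8, Ccl12, Ccl3, Ccl4 and Ccl5, which encode chemokines that draw monocytes and lymphocytes, and the receptor genes Ccr2 and Ccr1 were examined in whole ear skin of C57BL/6 mice. These 9 genes, 7 ligands and 2 receptors, were chosen by name, with earlier results of these data known. All 9 were found among the 25124 genes of the expression table. In 5 libraries the ears carried Staphylococcus epidermidis strain LM087, a skin bacterium swabbed on every other day. In the other 4 libraries the mice with the same bacterial treatment also received an antibody against CTLA-4, a receptor that restrains T cells. A region of about 1 mm was dissected on day 8 for total RNA. The dose and clone of the antibody are not in the sources used here, nor the age of the mice, nor whether the first group received a control antibody. Neither skin without the bacterium nor skin under antibody without it was analysed here. The labels number the replicates without naming separate animals, so the p-values rest on the spread between libraries, part of which may be technical.

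CC chemokines are small secreted proteins that bind G protein-coupled receptors on leukocytes and direct their movement. Inflammatory monocytes leave the bone marrow and enter tissue through CCR2, whose mouse ligands include CCL2, CCL7 and CCL12. CCL3 and CCL5 act through CCR1, among other receptors, and CCL4 is a close relative of CCL3. Mouse CCL8 is best known as a ligand of CCR8, a receptor of T cell subsets. In skin these ligands can come from macrophages, fibroblasts, endothelium, keratinocytes and, for CCL3, CCL4 and CCL5, activated lymphocytes.

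The genes lie in 3 stretches of the mm10 genome. Ccl2, Ccl7, Ccl12 and Ccl8 follow each other on the plus strand of chromosome 11 between positions 82035577 and 82116799. Ccl5, Ccl3 and Ccl4 lie further along chromosome 11 between 83525779 and 83664683, Ccl5 and Ccl3 on the minus strand and Ccl4 on the plus strand. Ccr1 (123962126 to 123968692, minus strand) and Ccr2 (124102183 to 124109140, plus strand) lie on chromosome 9. RefSeq promoter windows of build GRCm38.p6 were at hand for 5 of the 9 genes, namely Ccl12, Ccl8, Ccl3, Ccr2 and Ccr1. The 250 bases before the start of Ccl8, Ccl12 and Ccl3 are shown because these are the called ligands with a window, and the first 2 are neighbours. They cover chr11:82114935-82115184 on the plus strand for Ccl8, chr11:82101595-82101844 on the plus strand for Ccl12 and chr11:83649379-83649628 on the minus strand for Ccl3, and capitals mark the letters TATAAA.
Ccl8: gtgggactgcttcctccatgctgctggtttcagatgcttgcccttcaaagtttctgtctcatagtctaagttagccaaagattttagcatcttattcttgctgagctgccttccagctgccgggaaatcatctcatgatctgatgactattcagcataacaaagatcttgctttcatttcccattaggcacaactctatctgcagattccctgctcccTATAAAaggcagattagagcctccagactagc
Ccl12: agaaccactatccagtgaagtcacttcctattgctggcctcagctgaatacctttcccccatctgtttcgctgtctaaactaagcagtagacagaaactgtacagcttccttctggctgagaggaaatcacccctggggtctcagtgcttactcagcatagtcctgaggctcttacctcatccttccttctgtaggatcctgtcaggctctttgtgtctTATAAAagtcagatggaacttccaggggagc
Ccl3: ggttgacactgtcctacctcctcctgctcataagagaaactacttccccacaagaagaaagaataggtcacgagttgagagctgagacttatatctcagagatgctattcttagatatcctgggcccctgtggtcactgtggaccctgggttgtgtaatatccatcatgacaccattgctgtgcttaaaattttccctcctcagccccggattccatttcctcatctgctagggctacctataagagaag
The letters TATAAA, searched on both strands, began 32 bases before the start of Ccl8 and 31 bases before that of Ccl12, on the strand of the gene. They were not in the windows of Ccl3, Ccr2 and Ccr1. Of 32851 promoter windows of the same length, 12.4% held them. The kappaB consensus and the letters TGANTCA (AP-1), TTCNNNGAA (GAS) and GGGCGG (GC box), as well as the ISRE core motif, matched in none of the 5 windows, while 3.90%, 6.75%, 7.02%, 32.7% and 2.98% of all windows held them, which says only that these letters are not in this stretch.

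The values are TPM, reads scaled for gene length and library total, as deposited by the authors. The length in the table is the distance from a gene's start to its end for 99.2% of the genes, introns included. Multiplying TPM by that length gave whole numbers of reads in every library, so the depth was recovered and lay between 10213773 and 13868671 reads over the listed genes. A gene's TPM therefore falls with its span, so the order of levels among the 9 genes is given after rescaling to transcript length, while sums, shares and the choice of abundant genes below are on the deposited TPM scale. Keratinocyte genes were high, with Krt10 at 16685 ± 1688 and 12600 ± 1106, Krt14 at 3371 ± 435 and 3642 ± 274 and Krt5 at 2946 ± 283 and 3277 ± 329 TPM in the groups without and with anti-CTLA-4 (mean ± SD, n = 5 and n = 4). Of 6 keratinocyte genes, 1 rose (Krt1, from 792 ± 229 to 1506 ± 301 TPM), 1 fell (Dsg1a, from 275 ± 18.2 to 197 ± 23.2 TPM) and 4 were not called by limma.

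In skin given anti-CTLA-4, 6 of the 9 genes rose, namely Ccl8, Ccl12, Ccl3, Ccl4, Ccr2 and Ccr1, and none fell. By limma on log2(TPM + 1), with Benjamini-Hochberg adjustment over all 15704 genes tested and a threshold of 0.05, 7.16% of genes were called higher. Ccl2, Ccl7 and Ccl5 had higher means with the antibody but were not called. The median log2 fold change was 1.46 over the 9 genes and -0.01 over all genes tested. All 4 anti-CTLA-4 libraries lay above all 5 others for 5 of the 9 genes, against 8.02% of genes tested. Ccl3 and Ccl4 passed the expression filter (at least 1 TPM in at least 4 libraries) only through the anti-CTLA-4 libraries, and both were also called without a filter (limma adjusted p = 0.0242 and 0.0363). With the mean of 10 skeletal muscle genes or of the tested hair follicle genes as a covariate, 0 of the 9 genes were called, and 0 and 41 of all 15704 genes were called higher. All 9 fold changes stayed positive in both fits.

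**Figure D1:**
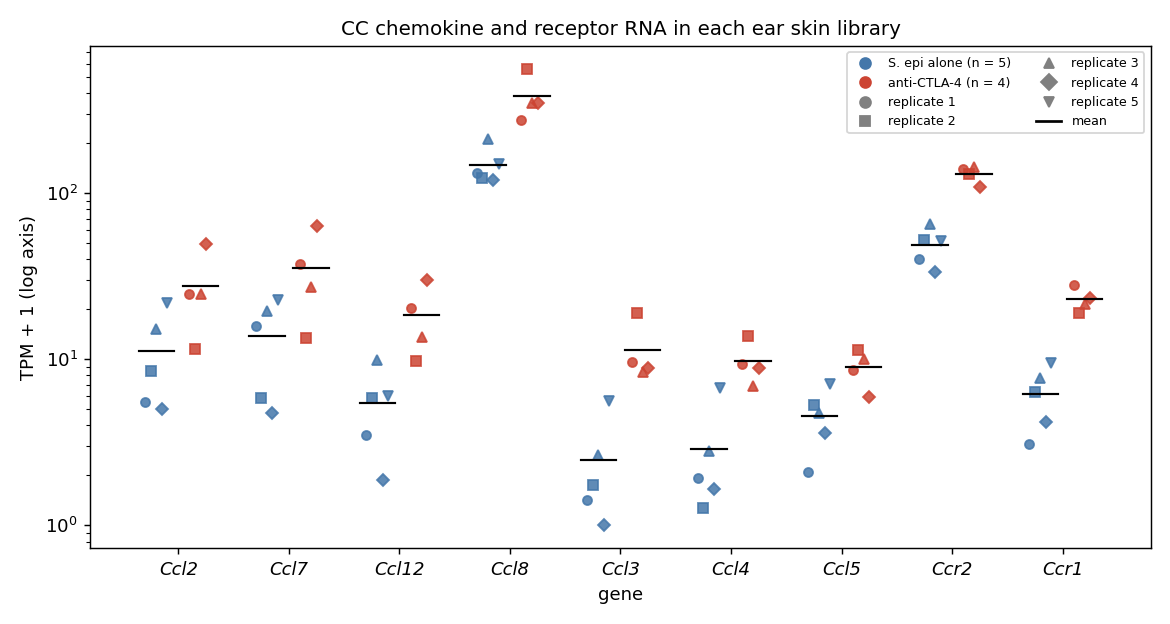
TPM + 1 on a log axis for each of the 9 genes in each library (blue, S. epi alone, n = 5; red, anti-CTLA-4, n = 4), with marker shapes for replicate numbers and a bar at the group mean of TPM. The groups do not overlap for Ccl8, Ccl3, Ccl4, Ccr2 and Ccr1, and Ccl8 is the highest of the 9 in every library on this scale.

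Among the monocyte chemoattractant protein (MCP) genes Ccl2, Ccl7, Ccl8 and Ccl12, Ccl8 had the highest level in every library. Ccl8 was at 131, 121, 209, 119 and 149 TPM in replicates 1 to 5 of the bacterium alone and at 275, 557, 345 and 346 TPM in anti-CTLA-4 replicates 1 to 4. Every anti-CTLA-4 library exceeded the highest library of the bacterium alone, and replicate 2 of the antibody group was the highest of all. The mean went from 146 ± 37.3 to 381 ± 122 TPM (mean ± SD, n = 5 and n = 4). This is a log2 fold change of 1.36 ± 0.22 (SE; limma adjusted p = 0.00602). The reads behind a Ccl8 value numbered 283 to 1314 per library. Counting error alone would give a coefficient of variation of 5.24% and 3.22% in the 2 groups, and the observed values were 25.6% and 32.1%.

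Ccl12, the chemokine MCP-5 that binds CCR2, was at 2.52, 4.86, 8.91, 0.874 and 5.00 TPM with the bacterium alone and at 19.4, 8.81, 12.6 and 29.1 TPM with the antibody. Anti-CTLA-4 replicate 2 lay just under replicate 3 of the bacterium alone, and the other 3 antibody libraries lay above all 5. The mean was 4.43 ± 3.04 and 17.5 ± 8.89 TPM (mean ± SD, n = 5 and n = 4). This is a log2 fold change of 1.85 ± 0.48 (SE; limma adjusted p = 0.0376). These are 54 reads in 5 libraries and 176 reads in 4. The call is close to the threshold. It was lost in 7 of 9 leave-one-out fits, all except those without replicate 3 of the bacterium alone or anti-CTLA-4 replicate 2 (limma adjusted p of up to 0.0960), and also without an expression filter (limma adjusted p = 0.0640).

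Ccl2 and Ccl7 were the least separated. Ccl2, the monocyte chemoattractant MCP-1 and main CCR2 ligand, was at 4.52, 7.43, 14.1, 3.98 and 20.7 TPM with the bacterium alone and at 23.5, 10.6, 23.7 and 48.2 TPM with the antibody. Replicate 5 of the bacterium alone was nearly as high as 2 antibody libraries, and anti-CTLA-4 replicate 2 was lower than replicates 3 and 5 of the bacterium alone. The log2 fold change was 1.36 ± 0.52 (SE; 95% interval 0.20 to 2.52), with a limma adjusted p of 0.127. Ccl7, known as MCP-3, was at 14.8, 4.81, 18.4, 3.75 and 21.8 TPM with the bacterium alone and at 36.1, 12.5, 26.2 and 62.7 TPM with the antibody. As for Ccl2, 3 of 4 antibody libraries lay above all 5 others, with a log2 fold change of 1.42 ± 0.58 (SE; 95% interval 0.12 to 2.72) and a limma adjusted p of 0.152. Their fold changes were thus about as large as that of Ccl8, with a standard error more than double.

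Summed over Ccl2, Ccl7, Ccl8 and Ccl12, the level was 128 to 251 TPM with the bacterium alone and 354 to 589 TPM with the antibody. Ccl8 made up 85.2% ± 6.38 and 82.0% ± 10.01 of that sum (mean ± SD, n = 5 and n = 4), so its share differed by less than the spread between libraries. Of the reads it made up 83.8% ± 6.91 and 80.7% ± 10.7. Within the antibody group the 4 ligands did not rank the libraries alike. Replicate 2 held the most Ccl8 (557 TPM) and the least Ccl2, Ccl7 and Ccl12 (10.6, 12.5 and 8.81 TPM). Replicate 4 held the most Ccl2, Ccl7 and Ccl12 (48.2, 62.7 and 29.1 TPM), with Ccl8 at 346 TPM. The share of Ccl8 in the sum was accordingly 94.6% in replicate 2 and 71.2% in replicate 4.

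**Figure D2:**
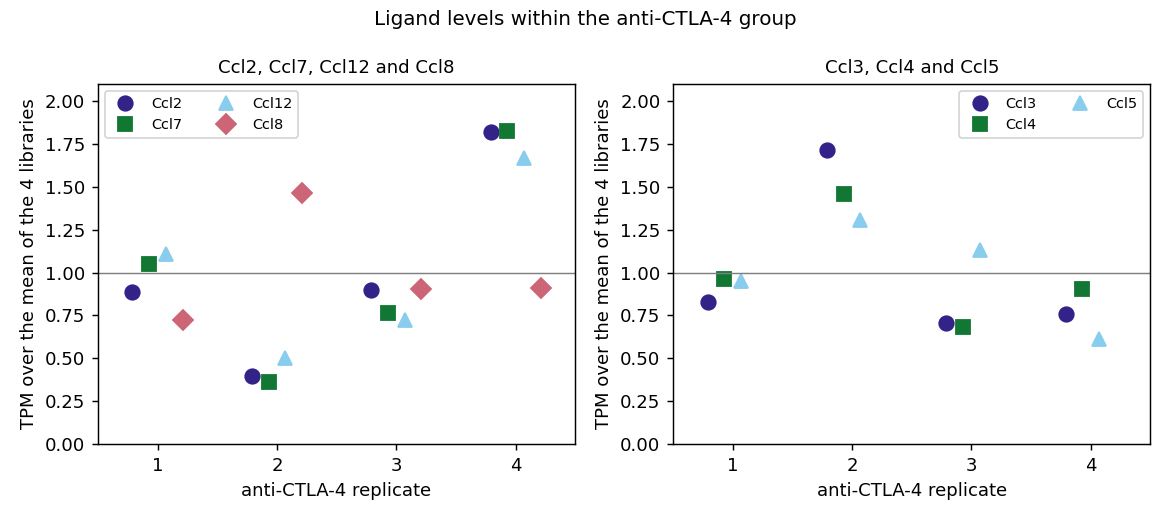
TPM in each of the 4 anti-CTLA-4 libraries divided by the gene's mean over those 4 libraries, for Ccl2, Ccl7, Ccl12 and Ccl8 (left) and for Ccl3, Ccl4 and Ccl5 (right), with points spread sideways for legibility. Replicate 2 is lowest for Ccl2, Ccl7 and Ccl12 and highest for Ccl8, Ccl3, Ccl4 and Ccl5, and replicate 4 is highest for Ccl2, Ccl7 and Ccl12.

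The MIP-1 ligands Ccl3 and Ccl4 had the lowest levels of the 7 ligands with the bacterium alone, and both rose. Ccl3 was at 0.425, 0.757, 1.64, 0 and 4.60 TPM with the bacterium alone, which are 1, 2, 4, 0 and 10 reads, and at 8.62, 17.8, 7.35 and 7.90 TPM with the antibody, which are 18, 40, 19 and 22 reads. The count of 0 in replicate 4 allows a level of up to 1.33 TPM, by counting error only. Replicate 5 of the bacterium alone stood above its group yet below every antibody library. The log2 fold change of Ccl3 was 2.39 ± 0.47 (SE; limma adjusted p = 0.0127), the 13th highest fold change of all genes tested. That rank is for log2(TPM + 1) among the genes past the filter, which Ccl3 passed only through the antibody libraries. On the recovered reads (limma voom, a fit added after seeing the data that weights each value by its read number) the log2 fold change was 3.31 ± 0.64. With a pseudocount of 0.1 in place of 1 it was 3.58 ± 0.94.

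Ccl4, which encodes MIP-1 beta, was at 0.932, 0.277, 1.80, 0.647 and 5.72 TPM with the bacterium alone (3, 1, 6, 2 and 17 reads) and at 8.41, 12.7, 5.94 and 7.88 TPM with the antibody (24, 39, 21 and 30 reads). Replicate 5 of the bacterium alone came within its counting interval of the lowest antibody library, replicate 3. The mean was 1.87 ± 2.22 and 8.73 ± 2.86 TPM (mean ± SD, n = 5 and n = 4). This is a log2 fold change of 1.99 ± 0.44 (SE; limma adjusted p = 0.0201). Leaving out replicate 2 of the antibody group ended the call (limma adjusted p = 0.0545).

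Ccl5, known as RANTES and made by activated T and natural killer cells among others, was at 1.10, 4.29, 3.72, 2.58 and 6.11 TPM with the bacterium alone and at 7.60, 10.4, 9.02 and 4.88 TPM with the antibody. Anti-CTLA-4 replicate 4, the highest library for Ccl2, Ccl7 and Ccl12, was the lowest of its group for Ccl5 and lay below replicate 5 of the bacterium alone. The log2 fold change of 1.05 ± 0.33 (SE; 95% interval 0.30 to 1.80) had a limma adjusted p of 0.0749 and was not called. Leaving out replicate 5 of the bacterium alone brought it under the threshold (limma adjusted p = 0.0380). The summed level of Ccl3, Ccl4 and Ccl5 was 2.46, 5.32, 7.15, 3.23 and 16.4 TPM with the bacterium alone and 24.6, 41.0, 22.3 and 20.7 TPM with the antibody. Replicate 5 held more than double the sum of any other library of the bacterium alone, and all 4 antibody libraries lay above it.

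Both receptor genes rose. Ccr2 was at 38.8, 51.1, 64.3, 32.4 and 50.4 TPM with the bacterium alone and at 138, 129, 142 and 108 TPM with the antibody, from 332 to 1666 reads per library. The groups were far apart and the antibody libraries close together, with a coefficient of variation of 12.0%. The log2 fold change was 1.46 ± 0.18 (SE; limma adjusted p = 0.00280), and Ccr2 was called in all 9 fits that left out 1 library. Ccr1, a receptor for CCL3 and CCL5 on monocytes and neutrophils, was at 2.08, 5.31, 6.71, 3.21 and 8.49 TPM with the bacterium alone and at 27.1, 18.0, 20.3 and 22.3 TPM with the antibody. The lowest antibody library was above the highest of the bacterium alone, the log2 fold change was 2.00 ± 0.30 (SE) and the limma adjusted p was 0.00487.

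**Figure D3:**
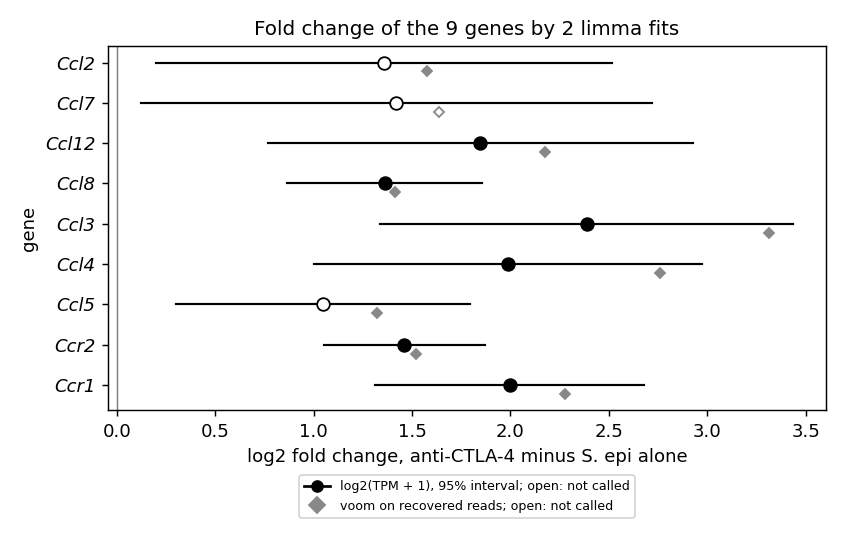
Log2 fold change of each of the 9 genes, anti-CTLA-4 minus S. epi alone, with the 95% interval from limma on log2(TPM + 1) (circles, filled where the adjusted p is under 0.05) and the estimate from limma voom on recovered reads (grey diamonds, filled likewise). The intervals are widest for Ccl2 and Ccl7, and the reads give larger values for the low genes Ccl3 (3.31) and Ccl4 (2.76).

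By limma voom on recovered reads, 8 of the 9 genes were called higher, against 12.4% of all genes tested. Ccl2 (log2 fold change 1.58, limma voom adjusted p = 0.0471) and Ccl5 (1.32, adjusted p = 0.0254) joined the list, and Ccl7 (1.64, adjusted p = 0.0617) did not. An exact two-sided permutation test of each gene over all 126 assignments of libraries to groups gave the smallest p it allows, 0.0159, for Ccl8, Ccr2, Ccl3, Ccl4 and Ccr1. It gave 0.0317 for Ccl12 and Ccl5 and 0.0794 for Ccl2 and Ccl7, without adjustment.

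RPKM, computed here from the recovered reads and the longest GENCODE M21 transcript of each gene with the reads of 2 ribosomal RNA entries (Rn45s and Mir6236) left out of the library total, allowed levels to be compared between genes. With the bacterium alone the order was Ccl8 (62.9 ± 17.6), Ccr2 (7.86 ± 2.22), Ccl5 (4.33 ± 2.38), Ccl7 (3.97 ± 2.61), Ccl2 (3.23 ± 2.36), Ccl12 (1.77 ± 1.23), Ccr1 (1.64 ± 0.864), Ccl4 (0.828 ± 1.00) and Ccl3 (0.415 ± 0.521) RPKM (SD, n = 5). From Ccl5 down, each gene differed from the next by less than the larger of their SDs. Ccr2 would be at 19.9 if its shortest listed transcript, of 2265 in place of 5728 bases, were the one present. With the antibody Ccl8 (169 ± 55.7) and Ccr2 (22.02 ± 2.54) were again first, then Ccl7 (10.9 ± 6.87), Ccl5 (9.94 ± 2.90), Ccl2 (8.57 ± 5.14), Ccr1 (7.15 ± 1.46), Ccl12 (7.13 ± 3.72), Ccl4 (3.92 ± 1.36) and Ccl3 (2.94 ± 1.45) RPKM (SD, n = 4). From Ccl7 to Ccl12 in that order, each gene differed from the next by less than the larger of their SDs. The sources used here do not say how reads in introns were treated, which makes these levels approximate.

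Ccr2 and Ccr1 were set against 17 other genes of monocytes and macrophages, of which 12 rose, none fell and 5 were not called, with a median log2 fold change of 0.77. The inflammatory monocyte surface protein gene Ly6c2 rose from 5.96 ± 3.80 with the bacterium alone to 25.7 ± 10.1 TPM (mean ± SD, n = 5 and n = 4), the macrophage marker Adgre1 from 2.91 ± 0.288 to 5.29 ± 1.26 TPM, and Cd68 from 101 ± 13.5 to 175 ± 27.5 TPM. Without a filter, Ly6c2 and the list gene Lyz2 were not called (limma adjusted p = 0.0611 and 0.0661). Csf1r, the growth factor receptor of macrophages, was at 33.6 ± 3.56 and 47.8 ± 10.9 TPM and did not pass the test (limma adjusted p = 0.0900). Mertk (6.57 ± 1.29 and 6.94 ± 0.832 TPM) and Cx3cr1 (0.789 ± 0.247 and 1.29 ± 0.183 TPM) did not pass either. In whole tissue, more cells of a type and more RNA per cell cannot be told apart.

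Relative to the mean log2(TPM + 1) of those 17 genes in the same library, Ccr2 was higher with the antibody. This holds for the mean of the list, not for each of its genes. Their log2 fold changes ran from 0.08 (Mertk) to 2.16 (Ly6c2), beside 1.46 for Ccr2. Named after their values were seen, Plac8 (1.83) and Fcgr1 (1.82) also lay above Ccr2. Ms4a6c (1.40) and Itgam (1.36) lay just below it, and the rest of the list was lower. The difference between Ccr2 and the list was 1.47 ± 0.22 in the group without antibody and 1.98 ± 0.10 in the anti-CTLA-4 group on the log2 scale (mean ± SD, n = 5 and n = 4), a rise of 0.51 with no overlap between groups (exact two-sided permutation p = 0.0159, the smallest the design allows; 0.0317 after Benjamini-Hochberg adjustment over both receptors). For Ccr1 it was -1.58 ± 0.45 and -0.54 ± 0.34, a difference of 1.04 (exact two-sided permutation p = 0.0317, and the same after adjustment over the pair). Replicate 5 of the bacterium alone (-0.92) was the one library of its group that reached the antibody group, whose replicate 2 was at -0.95. With any 1 library left out the Ccr1 difference stayed between 0.92 and 1.21. The exact p was then 0.0571 or 0.0714 in the 7 comparisons that kept this overlap, the next value above the smallest that 8 libraries allow. Without a pseudocount the difference was 0.39 for Ccr2 and 1.16 for Ccr1 (exact two-sided permutation p = 0.0317 for each, unadjusted). The rise of Ccr2 over the list was thus smaller on that scale, and its p was no longer the smallest the design allows.

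**Figure D4:**
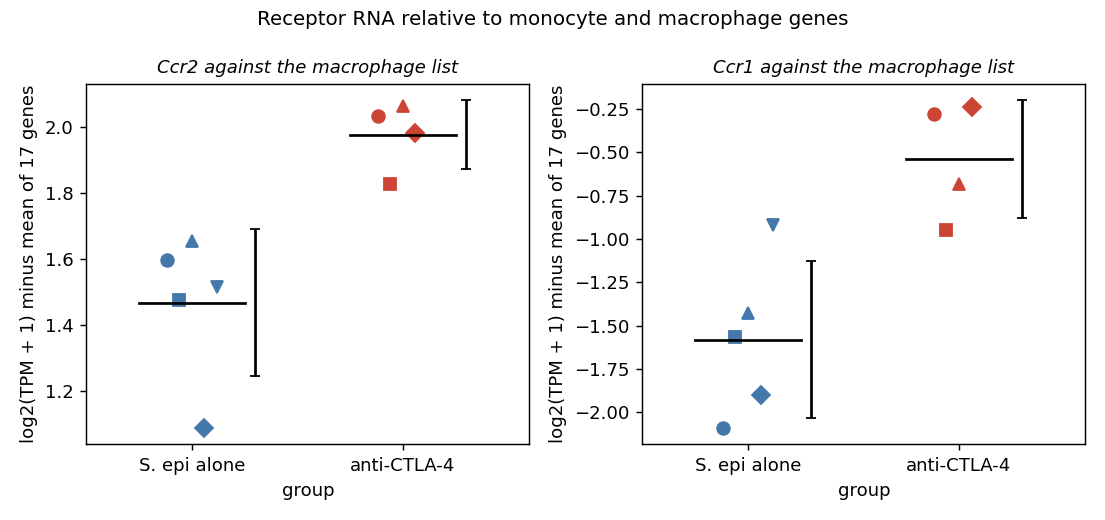
Log2(TPM + 1) of Ccr2 (left) and Ccr1 (right) minus the mean log2(TPM + 1) of 17 monocyte and macrophage genes in the same library, by group (marker shapes give replicate numbers 1 to 5 as circle, square, triangle, diamond and inverted triangle; horizontal bars, means; error bars, SD). The antibody libraries sit between 1.83 and 2.06 for Ccr2, above all 5 others, and between -0.95 and -0.24 for Ccr1.

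Outside the 9 genes, 2 of 17 other CC ligand genes rose, 9 were not called and 6 were below the filter. Ccl6 rose from 42.0 ± 9.60 to 124 ± 19.8 TPM and Ccl9 from 21.1 ± 5.33 to 52.7 ± 5.47 TPM (mean ± SD, n = 5 and n = 4; limma adjusted p = 0.00217 and 0.00235). Both encode CCR1 ligands of myeloid cells and lie between Ccl5 and Ccl3. The lymph node-directing Ccl21a (151 ± 25.5 and 153 ± 5.80 TPM) and the keratinocyte chemokine Ccl27a (86.1 ± 23.6 and 112 ± 35.5 TPM) had the highest TPM of the uncalled ligands. The median log2 fold change of its 11 tested genes was 0.35, against 1.46 for the 9 genes.

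Of 7 other CC receptor genes, 2 rose, 4 were not called and 1 was below the filter, with a median log2 fold change of 0.28. Ccr8, the receptor for mouse CCL8, rose from 0.377 ± 0.216 to 2.103 ± 1.10 TPM and Ccr6 from 1.52 ± 0.525 to 2.76 ± 0.431 TPM (mean ± SD, n = 5 and n = 4; limma adjusted p = 0.0124 and 0.0381). Ccr8 passed the filter only through the antibody libraries, from 8 reads in 5 libraries and 38 reads in 4, and its limma adjusted p without a filter was 0.0209. Ccr6 was not called without a filter (limma adjusted p = 0.0592). Ccr4 (15.2 ± 2.24 and 18.8 ± 2.42 TPM) and Ccr9 (4.62 ± 0.388 and 4.11 ± 0.784 TPM) were not called.

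None of the 5 atypical receptor genes was called, with adjusted p-values by limma of at least 0.256. These receptors bind chemokines without the usual signal and can clear or transport them. Ackr2, the scavenger of inflammatory CC chemokines and named for that role after its values were seen, was at 4.96 ± 0.730 and 4.73 ± 0.465 TPM, Ackr1, which carries chemokines across venules, at 56.8 ± 10.5 and 61.4 ± 8.01 TPM, and Ackr3 at 20.2 ± 1.89 and 19.9 ± 0.595 TPM (mean ± SD, n = 5 and n = 4). The median log2 fold change of the 5 was -0.01.

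**Figure D5:**
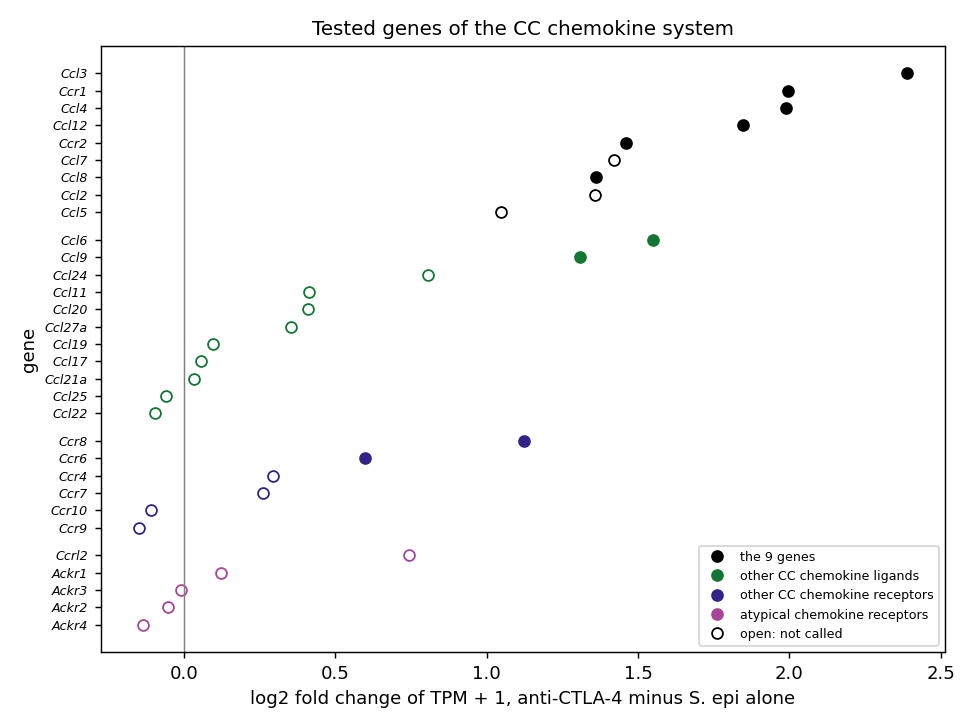
Log2 fold change of TPM + 1, anti-CTLA-4 minus S. epi alone, for the 9 genes (black) and for the tested genes of 3 other lists: CC ligands (green), CC receptors (indigo) and atypical receptors (purple), filled where the limma adjusted p is under 0.05. Ccl6, Ccl9, Ccr8 and Ccr6 are the called genes outside the 9.

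Among 17 genes of signalling downstream of chemokine receptors, 9 rose, 1 fell and 7 were not called (median log2 fold change 0.33). Rac2, a leukocyte GTPase needed for migration, rose from 5.25 ± 1.00 to 16.2 ± 2.85 TPM and its activator Dock2 from 2.79 ± 0.311 to 6.02 ± 0.843 TPM (mean ± SD, n = 5 and n = 4; limma adjusted p = 0.00212 and 0.00220). The G protein gene Gnai2 rose from 44.1 ± 3.29 to 64.3 ± 2.57 TPM, while Gnai3 fell from 42.0 ± 1.29 to 36.4 ± 2.23 TPM. Pik3cg, Pik3r5, Elmo1, Ptk2b, Arrb2 and Rgs1 rose by 0.51, 0.78, 0.32, 0.33, 0.71 and 0.77 on the log2 scale. Grk2 (43.0 ± 2.71 and 42.0 ± 4.43 TPM) and Gnb1 (27.5 ± 1.31 and 29.3 ± 2.31 TPM) had the highest TPM of the uncalled genes.

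Of 12 inducers of these chemokines, monocyte growth factors and their receptors, 3 rose, 7 were not called and 2, Il6 and Ifnb1, were below the filter. Il1b rose from 7.65 ± 7.17 to 27.2 ± 1.31 TPM, and the GM-CSF receptor chains Csf2ra from 23.3 ± 3.59 to 36.1 ± 4.91 and Csf2rb from 12.1 ± 2.12 to 19.8 ± 1.19 TPM (mean ± SD, n = 5 and n = 4). The median log2 fold change of the 10 tested genes was 0.54. Csf1, the macrophage growth factor (22.4 ± 1.36 and 27.6 ± 3.33 TPM), was not called. Named after their values were seen, Tnf (6.09 ± 2.27 and 10.9 ± 2.39 TPM) and Ifng were not called either (limma adjusted p = 0.0514 and 0.192). Of 9 other monocyte-attracting cues and their receptors, 5 rose, namely Cxcl12, C5ar1, Cmklr1 and its ligand Rarres2, and Vcam1, by between 0.44 and 0.97 on the log2 scale. Cmklr1 and Vcam1 were not called without a filter (limma adjusted p = 0.0569 and 0.0608). Icam1 (13.9 ± 2.83 and 19.6 ± 3.18 TPM) and Cxcr4 (8.25 ± 1.23 and 13.5 ± 4.52 TPM) were not called.

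Within 100 kb of the 9 genes, 16 other genes were considered. Of these 11 were tested, 4 rose and none fell. Ccl6 and Ccl9 are described above, and the other 2, named after their values were seen, were Wfdc17 and E230016K23Rik. Ccl11, the eotaxin gene between Ccl7 and Ccl12, was at 7.85 ± 2.90 and 10.5 ± 2.21 TPM (mean ± SD, n = 5 and n = 4) and did not pass (limma adjusted p = 0.289). Ccl1, beyond Ccl8, and Ccr3, between Ccr1 and Ccr2, were below the filter at 0.125 ± 0.114 and 0.367 ± 0.457 TPM and at 0.367 ± 0.193 and 0.883 ± 0.216 TPM. In the stretch of Ccl2 to Ccl8, called genes were thus neighboured by genes that were not called. The log2 fold changes of the uncalled Ccl2 and Ccl7 (1.36 and 1.42) were nonetheless close to that of the called Ccl8 (1.36). A difference between neighbours was not tested.

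Marker lists of other cell types moved with the 9 genes to different extents. Of 10 T cell genes, 9 rose, and their summed level was 23.9 to 32.1 TPM with the bacterium alone and 61.4 to 86.2 TPM with the antibody. Of 10 neutrophil genes, 6 were tested and 4 rose, and the sum was 111 to 1483 and 1521 to 4467 TPM. Most of that sum was S100a8 (476 ± 462 and 1904 ± 1018 TPM) and S100a9 (204 ± 200 and 630 ± 295 TPM), which were not called (limma adjusted p = 0.0821 and 0.115). The other 4 genes, Ly6g, Mmp8, Mpo and Elane, were below the filter. Of these, Ly6g and Elane were at or near 0 in both groups, each with 0 reads in 5 libraries and 1 read in 4. The 4 called were Csf3r, Cxcr2, Mmp9 and Retnlg (limma adjusted p = 0.00931, 0.0377, 0.0148 and 0.0340). Among them, Retnlg passed the filter only through the antibody libraries. Retnlg and Cxcr2 were not called without a filter (limma adjusted p = 0.0570 and 0.0622). Of 8 natural killer and cytotoxic genes, 5 were tested and 4 rose, with a sum of 14.5 to 26.0 and 55.2 to 72.0 TPM. Of the called T cell genes 2, and of the called cytotoxic genes 2, passed the filter only through the antibody libraries, and all of these were also called without a filter. Another called T cell gene, Cd5, was not called without a filter (limma adjusted p = 0.0574). None of the 8 dendritic and Langerhans cell genes, 6 fibroblast genes and 6 endothelial genes was called, with adjusted p-values by limma of at least 0.0553, 0.0788 and 0.0756. Of 6 mast cell genes 3 rose, and the sum of the 6 was 154 to 223 and 261 to 269 TPM. Among those that rose, Mcpt4 and Cpa3 were not called without a filter (limma adjusted p = 0.0634 and 0.0620). The part of these cell types in the levels of the 9 genes was not tested.

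Some muscle and hair follicle genes fell. The mean log2(TPM + 1) of 10 skeletal muscle genes was 6.56 ± 0.217 and 6.12 ± 0.262, with 2 of 10 lower, and that of 8 tested hair follicle genes 2.85 ± 0.316 and 2.31 ± 0.201, with 4 of 8 lower (mean ± SD, n = 5 and n = 4). With the muscle mean as a covariate, the log2 fold changes of Ccr2, Ccr1, Ccl8 and Ccl3 were 1.43, 1.96, 1.26 and 1.89, and their limma adjusted p-values were 0.0722, 0.0917, 0.112 and 0.204. Those of Ccl4, Ccl12 and Ccl5 were 1.72, 1.58 and 0.92 (limma adjusted p = 0.233, 0.332 and 0.434). Ccl2 went from 1.36 to 0.80 and Ccl7 from 1.42 to 0.94 (limma adjusted p = 0.688 and 0.681). The shift of Ccl3, from 2.39 to 1.89, was of similar size. With the hair follicle mean the fold changes of Ccr2, Ccr1, Ccl8 and Ccl3 were 1.51, 1.80, 1.15 and 2.43, with limma adjusted p-values of 0.0716, 0.150, 0.199 and 0.212. The other 5 lay between 1.07 and 1.67, with limma adjusted p-values of 0.371 to 0.712.

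Across the 9 libraries the standardised profiles of the 9 genes, each centred and divided by its SD, could be ranked by likeness. The root-mean-square distance was smallest between Ccl3 and Ccl4 (0.24), followed by Ccr1 and Ccr2 (0.30), and largest between Ccl5 and Ccl7 (1.07). Outside the 9, the protein-coding genes closest to Ccr2 were Ifi30 and Fermt3 (0.11 and 0.12), to Ccr1 Ctla4 and Oas3 (0.13 and 0.13), to Ccl4 Cxcl2 and Slfn4 (0.15 and 0.25), to Ccl3 Oas1a and Sp110 (0.18 and 0.18), and to Ccl8 Hcst and Glipr1 (0.19 and 0.24). For Ccl7 they were Irf1 and Noc4l (0.18 and 0.24), for Ccl2 Tnfsf10 and Mtfr2 (0.20 and 0.20), for Ccl12 Tagln2 and Bak1 (0.21 and 0.23), and for Ccl5 Tagap and Ly6c2 (0.21 and 0.25). The median distance to 14014 genes lay between 1.37 and 1.46. These distances describe 9 libraries that share 1 group difference, and the nearest of many genes is close by selection.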

How the data were processed

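Total RNA of ear skin (500 ng) was made into libraries that were run for 75 cycles on a NextSeq 550, per the labels' protocols. The submitters' processing notes name STAR, HOMER, DESeq2 and mm10. The sources used here do not give versions, roles, the gene annotation or strand handling. The authors deposited TPM for 25124 genes in 9 libraries. The deposited Length column, in bases, equals end minus start for 99.2% of genes. TPM times that length was divided by 1 value per library, fitted so that the results came out whole. They were whole (within 0.12 reads) for 100% of the values tested, against 24.5% with lengths shifted by 1 gene. The values tested were those of genes up to 100000 bases with under 2000 reads. This gave the reads per gene. Intervals and floors (3 reads) cover counting error only, and the 95% intervals of reads are exact Poisson ones.

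Groups and replicate numbers came from sample titles. The filter kept genes that reached 1 TPM in 4 or more libraries. Group differences in log2(TPM + 1) were fitted by limma 3.58.1 (R 4.3.3), with variances that follow the mean, no covariate and Benjamini-Hochberg adjustment (threshold 0.05, two-sided). The fit was tested on simulated reads with less spread between libraries than any of the 9 genes had with the bacterium alone. That test therefore does not cover their spread. Single ratios were compared by exact permutation. The 9 genes and the lists were chosen with earlier results of these data known. Named were all 9 genes, called genes and the 2 uncalled genes with the highest TPM of each pathway list, some cell markers, chemokine genes nearby and the 2 genes nearest in profile. Alternatives were other pseudocounts, filters, scalings, variance settings, array weights, a replicate block, 2 covariates, a threshold of 0.1 and leaving out each library. A voom fit on recovered reads and ratios without a pseudocount were added after the data were seen. Same-numbered libraries of the 2 groups are not stated to be paired. Some genes of the lists and of the neighbourhood are not reported here, and counts leave them out.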

Additional observations from a re-analysis of the deposited data

Results flagged for a closer look

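The levels of the 9 genes and 6 derived values were checked in each group for a single library far from the rest, which is 30 groups in all. Chance flags about 1 group in 20, and 2 were found. Ccl3 in anti-CTLA-4 replicate 2 stood at 17.8 TPM, with the next library at 8.62 TPM. Ccl4 in replicate 5 of the bacterium alone stood at 5.72 TPM, with the next library at 1.80 TPM. Without the first library the log2 fold change of Ccl3 was 2.12 (limma adjusted p = 0.0354), and without the second that of Ccl4 was 2.36 (limma adjusted p = 0.00345).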

How the results depend on the processing

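All 9 genes kept a positive fold change in all 24 alternatives. Those that change only the filter, the prior variance, the threshold or the test leave the fold change itself as it was, so they could not reverse it. Ccr2, Ccr1, Ccl8 and Ccl3 lost their call in the 2 covariate fits alone, Ccl4 also without anti-CTLA-4 replicate 2, and Ccl12 in 13 of 24. The number of genes called, 6, was 0 with the muscle and 0 with the hair follicle covariate; the cause was not tested. It was 5 or 6 in the other fits on TPM, 5 to 6 when 1 library was left out, 7 at a threshold of 0.1, and 8 by voom on recovered reads. Over all genes, 1124 were called higher, against 1946 by voom, 593 with the replicate block and 706 without anti-CTLA-4 replicate 3. The count of lower genes, 704, was 1429 after quantile normalization, 1313 after scaling to a common median, 1092 by voom, 88 with the block and 337 to 703 when 1 library was left out. With the replicate number as a block, which leaves replicate 5 without a partner and so without weight, 6 genes were called: Ccl5 passed (limma adjusted p = 0.0418) and Ccl12 did not (0.145). Deviations of same-numbered libraries correlated between -0.093 and 0.018, so the numbers give no hint of pairing. The Ccr1 difference from the macrophage list ranged from 0.92 to 1.21 when 1 library was left out; its exact p was above 0.05 in the 7 of 9 comparisons that kept the overlap, as so small a design fixes. The difference in Ccl8's share of the 4-ligand sum, -3.16 percentage points, turned to 0.45 without anti-CTLA-4 replicate 4 and ranged down to -7.34. Low read numbers limit Ccl3 and Ccl4 with the bacterium alone (17 and 29 reads in 5 libraries).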
